A study of Homo sapiens with 48 samples.

Results

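The insulin-like growth factor (IGF) binding proteins and the insulin-like receptors were followed in PSN1 cells that had become resistant to Talazoparib. The 10 genes are IGFBP1, IGFBP2, IGFBP3, IGFBP4, IGFBP5, IGFBP6, IGFBP7, IGF1R, IGF2R and INSR. They were chosen by name, with earlier results of these data known, and all 10 were present among the 20241 genes of the expression table. A gene was tested if it exceeded 1 CPM (reads of a gene scaled to the total reads of its library) in at least 3 libraries, which 12471 genes did. All 10 were tested, but IGFBP7 passed only through TalaR-M cells, so that a difference for this gene was built into the filter.

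PSN1 is an established pancreatic cancer line, and Talazoparib is an inhibitor of poly (ADP-ribose) polymerase (PARP). Parental cells are labelled wild type and untreated, and TalaR-M cells are resistant cells kept in 50 nM Talazoparib with a labelled time of 4 months. TalaR-DF cells come from resistant cells, are labelled as untreated, and were grown by the study without the drug for 4 weeks. The study reports that PSN1 cells had by then regained nearly the Talazoparib sensitivity of the parental line. Resistant populations, cells and libraries below therefore mean TalaR-M and TalaR-DF by origin, not by sensitivity. Each group had 3 RNAseq libraries from harvests in triplicate, all from 1 cell line, and no source used here says whether the 3 came from separate cultures, so p-values measure only the spread between these libraries. TalaR-M cells were compared with parental cells for expression under selection, and TalaR-DF cells with parental cells for what differed after the drug was withdrawn. TalaR-M cells were compared with TalaR-DF cells for cells of resistant origin with and without drug.

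IGF1 and IGF2 are secreted growth factors that activate the tyrosine kinase IGF1R, while insulin activates INSR, one isoform of which also binds IGF2. Both receptors signal through insulin receptor substrates to PI3K and AKT and through RAS to MAPK, whereas IGF2R carries IGF2 to lysosomes and sorts lysosomal enzymes. The secreted binding proteins IGFBP1 to IGFBP6 hold IGFs away from IGF1R or extend their lifetime until a protease cleaves them, and IGFBP7 is a related protein with low affinity for IGFs.

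IGFBP5 had the widest range of the 10 genes and was lower than in parental cells by 10.6-fold in TalaR-M and by 24.3-fold in TalaR-DF cells. IGFBP1 was lower in both resistant populations, and IGFBP3 was called lower in TalaR-DF cells. IGF1R was lower in TalaR-M cells, and INSR was higher in TalaR-DF cells. IGF2R, IGFBP2 and IGFBP4 passed the test in none of the 3 comparisons by limma with all libraries.

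The promoters of the binding proteins and receptors that carried these differences are shown as the 250 bases before the start site, so that the composition and the motif matches of genes that fell can be set beside those of INSR, which rose. The sequences are from RefSeq (GRCh38.p14) and run 5′ to 3′ on the strand of the gene. Capitals mark matches to 1 of 5 motifs, searched on both strands. The core promoter element was searched as TATAAA. The E-box was searched as CAGGTG and the GC box as GGGCGG. The forkhead motif was searched as TGTTTAC and the insulin response motif as CAAAACA. The windows are chr2:216695550-216695799, minus strand (IGFBP5), chr7:45921273-45921522, minus strand (IGFBP3), chr15:98648289-98648538, plus strand (IGF1R) and chr19:7294415-7294664, minus strand (INSR). The whole IGFBP3 window lies inside the gene as GENCODE draws it, because RefSeq places the start site further into the gene.
IGFBP5: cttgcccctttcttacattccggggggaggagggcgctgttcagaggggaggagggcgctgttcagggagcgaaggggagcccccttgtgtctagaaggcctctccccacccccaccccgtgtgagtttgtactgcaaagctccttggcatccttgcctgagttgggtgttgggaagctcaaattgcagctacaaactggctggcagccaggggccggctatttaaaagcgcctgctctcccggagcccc
IGFBP3: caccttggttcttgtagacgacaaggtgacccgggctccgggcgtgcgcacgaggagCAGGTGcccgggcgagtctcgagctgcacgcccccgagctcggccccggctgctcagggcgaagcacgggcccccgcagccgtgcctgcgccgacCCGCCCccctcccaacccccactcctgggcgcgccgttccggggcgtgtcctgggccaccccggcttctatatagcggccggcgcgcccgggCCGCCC
IGF1R: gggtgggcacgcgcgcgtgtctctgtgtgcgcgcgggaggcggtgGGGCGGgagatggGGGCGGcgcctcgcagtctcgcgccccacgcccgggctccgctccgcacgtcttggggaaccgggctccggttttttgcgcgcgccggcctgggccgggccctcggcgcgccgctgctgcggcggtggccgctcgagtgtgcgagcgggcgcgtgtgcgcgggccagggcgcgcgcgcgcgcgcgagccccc
INSR: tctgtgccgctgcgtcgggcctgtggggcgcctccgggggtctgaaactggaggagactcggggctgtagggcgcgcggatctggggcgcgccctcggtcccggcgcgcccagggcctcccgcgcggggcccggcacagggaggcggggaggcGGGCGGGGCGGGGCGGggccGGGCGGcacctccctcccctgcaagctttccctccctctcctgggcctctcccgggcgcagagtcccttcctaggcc

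No capitals appear in the IGFBP5 window, which held 0 matches to the 5 motifs and 61.2% G and C, against a median of 58% over all promoters of the table. The IGFBP3 window held 1 E-box, 193 bases before its start site, and 2 GC boxes, with 76% G and C. In the IGF1R window, 2 GC boxes lay 205 and 192 bases before the start, and the window was 81.2% G and C. The INSR window held 4 GC boxes between 97 and 77 bases before the start and was 78.4% G and C. Over the 34943 promoters of the table, 42.5% held a GC box, 17.5% the E-box, 10.8% the core promoter element, 4.31% the insulin response motif and 2.98% the forkhead motif. These matches describe letters only and do not show binding. IGFBP1 and IGFBP7 had no entry in the table.

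Depth ranged from 8387755 to 14973847 reads per library on genes above 1 CPM, and TalaR-M replicate 2 was the shallowest. That library stood apart, with a correlation across 10512 genes of 0.780 with each fellow replicate, against at least 0.993 for the other pairs of replicates. Of 8 markers of pancreatic duct epithelium, 7 were above 1 CPM in each library and CDH1, which encodes E-cadherin, was at 0 in each. The summed level of the epithelial markers was 1199 to 1261 CPM in parental, 1782 to 5829 CPM in TalaR-M and 1017 to 1153 CPM in TalaR-DF libraries. Of 8 fibroblast markers, 6 were above 1 CPM in every library of each group, THY1 was at 0 throughout, DCN was at 0 in parental and TalaR-DF cells, and COL1A2 was at 0 in TalaR-M cells. Their summed level was 1795 to 1868, 1225 to 3408 and 912 to 1028 CPM in the same order of groups. The 5 endothelial markers summed to 28.9 to 32.1, 5.91 to 10.3 and 2.92 to 3.24 CPM, with VWF at 0 throughout, and the 5 leukocyte markers to 11.1 to 14.7, 4.14 to 7.11 and 1.18 to 2.55 CPM, with CD3E and LYZ at 0 throughout. Both sums were thus highest in parental and lowest in TalaR-DF libraries, the order also of the group means of IGFBP1, IGFBP3 and IGFBP5, and the part of any of these markers in the results was not tested. Of 6 acinar or islet markers, CELA3A, GCG, SST and CHGA were at 0 throughout, and the sum was at most 5.32 CPM.

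Values of that library departed from those of its replicates in step with transcript length. With genes split by length into 10 bins, the median difference from replicates 1 and 3 (averaged) was 1.43 on the log2 scale in the bin of shortest transcripts, and -1.45 where transcripts were longest. The binding proteins and receptors spanned this range, since IGFBP6 has a transcript of 947 bases and IGF2R one of 14061 bases. IGFBP6 deviated by 2.48, IGFBP2 by 1.56 and IGFBP4 by 1.08, all above the medians of their bins (1.43, 0.56 and 0.19). IGF2R deviated by -2.40 and IGFBP5 by -1.69, below medians of -1.45 and -1.25. IGFBP1 (0.40 against 0.56), IGFBP3 (-0.34 against -0.11) and IGF1R (-1.34 against -1.45) lay closer to theirs, and INSR deviated by -0.65 against -1.45. Changes in TalaR-M cells are therefore given with and without this library, and the part of transcript length in the results was not tested.

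**Figure D1:**
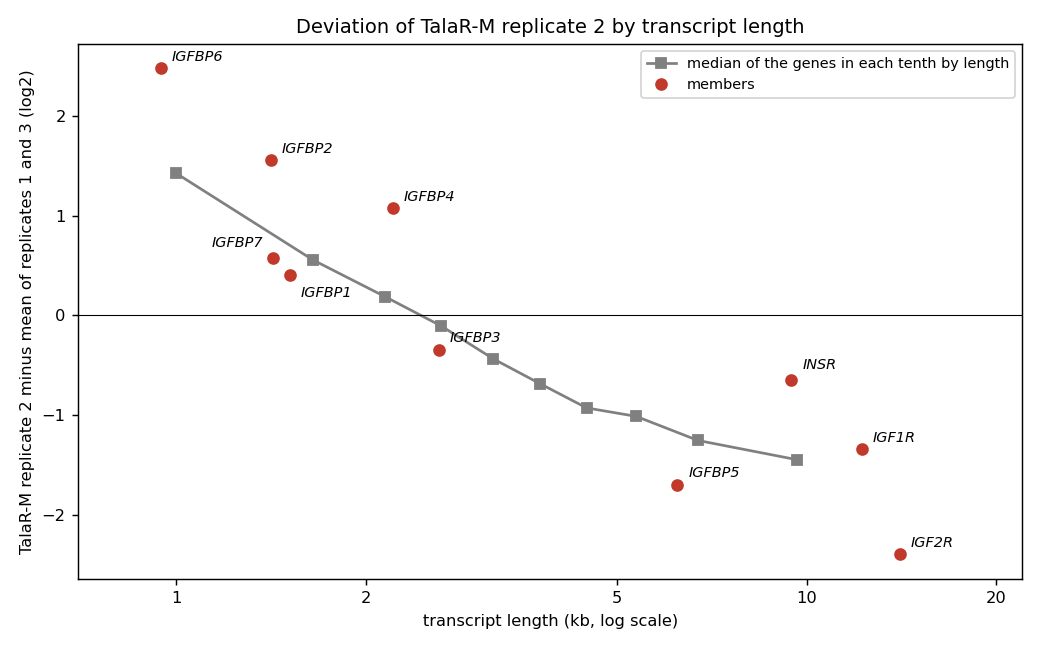
Log2 difference between TalaR-M replicate 2 and its 2 fellow replicates, averaged (y axis), against transcript length in kb (log x axis). Grey squares are medians of 10 bins by length and fall from 1.43 to -1.45, and red points are the 10 genes, from IGFBP6 at 2.48 to IGF2R at -2.40.

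Because IGFBP7 passed the filter through TalaR-M cells alone, counts are given over the other 9 genes. In TalaR-M cells 3 of 9 were called against parental cells, IGFBP1, IGFBP5 and IGF1R, all lower, where 13.3% of all tested genes were called. In TalaR-DF cells 4 of 9 were called against parental cells, IGFBP1, IGFBP3 and IGFBP5 lower and INSR higher, against 9.73% of all genes. Between TalaR-M and TalaR-DF cells 2 of 9 were called, IGFBP1 and IGFBP6, both higher in TalaR-M cells, against 6.93%. When only those groups were fitted, limma called 0 of 9 (4 at an unadjusted p under 0.05, background of calls 3.88%), and it also called 0 of 9 with parental replicate 1, 2 or 3 or TalaR-DF replicate 2 or 3 left out (4 to 5 at an unadjusted p under 0.05), and 1 of 9 with TalaR-DF replicate 1 left out. Calls needed a limma adjusted p (Benjamini-Hochberg over all tested genes) under 0.05 and at least a 2-fold change. The median log2 fold change of the 9 genes was -0.84, -0.76 and 0.58 in the 3 comparisons, beside -0.09, 0.01 and -0.09 over all tested genes. Without TalaR-M replicate 2, calls numbered 5 of 9 (background 13.9%), 5 (11.4%) and 2 (8.36%). The medians of the 9 genes were then -0.79, -0.76 and 0.22, beside 0.01, 0.01 and -0.02 over all tested genes.

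Without regard to p, the 3 TalaR-DF libraries lay below the 3 parental libraries for 7 of the 9 genes, IGFBP1 to IGFBP6 and IGF1R, and above them for INSR, which makes 8 of 9 without overlap (68.5% of all genes). Over all tested genes 33.2% lay below without overlap and 35.3% above. TalaR-M and parental libraries did not overlap for 5 of the 9 genes, against 49.8% of all genes, and TalaR-M and TalaR-DF libraries for 4, against 40.8%, so that these last counts are near the background.

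**Figure D2:**
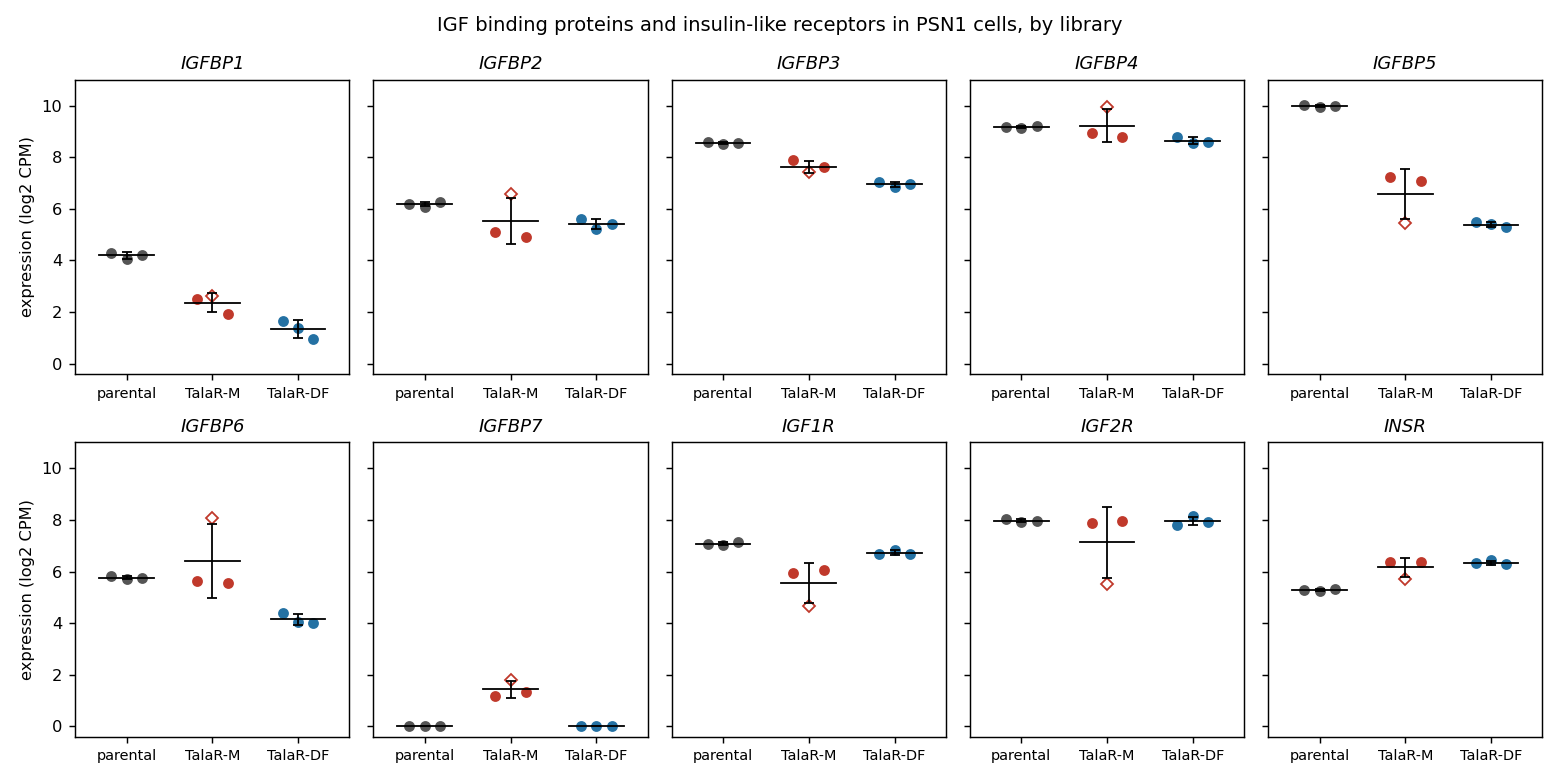
Expression in log2 CPM (y axis) of the 10 genes in the libraries of the 3 groups (x axis). Points are libraries, the open diamond is TalaR-M replicate 2, and lines with bars are the mean and SD of 3 libraries. IGFBP5 falls from 9.99 in parental to 5.39 in TalaR-DF cells, while INSR rises from 5.29 to 6.35.

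IGFBP5, which binds IGFs and components of the extracellular matrix, was at 10.01, 9.95 and 10.00 log2 CPM in parental replicates 1 to 3. It was at 7.22, 5.45 and 7.07 in TalaR-M and at 5.48, 5.40 and 5.28 in TalaR-DF replicates 1 to 3. All 6 resistant libraries lay below the parental ones, and TalaR-M replicate 2 was the only TalaR-M library within the TalaR-DF range. The log2 fold change was -3.41 under maintained drug (95% confidence interval -4.35 to -2.46, adjusted p = 0.000592 from limma) and -4.60 after withdrawal (-5.55 to -3.66, adjusted p = 0.000131). The increase of 1.19 from TalaR-DF to TalaR-M cells was not called by limma (adjusted p = 0.101). With TalaR-M replicate 2 left out, IGFBP5 differed from parental cells by -2.84 (limma adjusted p = 5.84e-11, within a range of 4.15e-13 to 0.00848 over the alternatives), and it was 3.38-fold higher in TalaR-M than in TalaR-DF cells (log2 fold change 1.76, adjusted p = 7.59e-09, range 1.49e-09 to 0.275). The gene has 4 exons and lies on chromosome 2 from 216672105 to 216695549 (GRCh38, minus strand), and its promoter is the first of those shown.

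IGFBP1, an insulin-regulated binding protein best known from liver, was expressed at a lower level. Parental replicates 1 to 3 held 289, 232 and 245 reads, or 4.30, 4.06 and 4.22 log2 CPM. TalaR-M replicates were at 2.50, 2.63 and 1.94 and TalaR-DF replicates at 1.66, 1.39 and 0.98 log2 CPM, the last from 24 reads. The 3 groups did not overlap, and parental cells were the highest. IGFBP1 changed by -1.84 in TalaR-M cells (95% confidence interval -2.39 to -1.29, adjusted p = 0.000919 from limma) and by -2.85 in TalaR-DF cells (-3.40 to -2.30, adjusted p = 8.89e-05). These are falls of 3.57-fold and 7.22-fold, and the first was -1.97 on the log2 scale without TalaR-M replicate 2. The 2.02-fold increase from TalaR-DF to TalaR-M cells was called (limma adjusted p = 0.0298, range 0.00469 to 0.187 over the alternatives), but the call was lost when any of 7 libraries was left out. Those were parental replicates 1, 2 and 3 (fold unchanged, limma adjusted p = 0.0586, 0.0577 and 0.0611), TalaR-M replicates 1 (0.94) and 2 (0.88), and TalaR-DF replicates 2 (1.04) and 3 (0.83). Of 4 hepatocyte markers, ALB and TTR were at 0 in all libraries, and the sum of the 4 was 84.6 to 95.4 CPM in parental, 23.6 to 42.7 in TalaR-M and 12.5 to 14.4 in TalaR-DF libraries, with SERPINA1 as the marker above 1 CPM throughout. Its part in the result was not tested.

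IGFBP3, the main carrier of IGFs in the circulation, was at 8.57, 8.51 and 8.55 log2 CPM in parental replicates 1 to 3. The TalaR-M values were 7.88, 7.41 and 7.63 and the TalaR-DF values 7.04, 6.84 and 6.96. As for IGFBP1, the 3 groups stood apart in the order parental, TalaR-M, TalaR-DF. The decrease in TalaR-DF cells was 1.60 on the log2 scale by limma, or 3.03-fold (95% confidence interval -1.93 to -1.27, adjusted p = 0.000138). In TalaR-M cells IGFBP3 changed by -0.91 (adjusted p = 0.0027 from limma), short of 2-fold, and by -0.79 without replicate 2. Leaving out TalaR-M replicate 1 took the change past 2-fold (-1.03, limma adjusted p = 0.00206, range 2.89e-07 to 0.0215 over the alternatives). TalaR-M exceeded TalaR-DF cells by 0.69 (adjusted p = 0.0184 from limma), and by 0.81 without TalaR-M replicate 2, also short of 2-fold.

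IGFBP6, which prefers IGF2 over IGF1, was at 5.83, 5.71 and 5.76 log2 CPM in parental replicates. TalaR-DF replicates 1 to 3 were lower, at 4.39, 4.06 and 4.00. TalaR-M replicates 1 and 3 were at 5.64 and 5.56, close to the parental libraries, whereas replicate 2 reached 8.08. The limma change in TalaR-DF cells was -1.62 with an adjusted p of 0.105, which became 7.17e-08 without TalaR-M replicate 2 (range 1.09e-09 to 0.257 over the alternatives), a fall of 3.07-fold. That library entered this comparison only through the shared estimate of the spread. TalaR-M cells exceeded TalaR-DF cells by 2.28 (limma adjusted p = 0.0437), and by 1.45 once TalaR-M replicate 2 was left out (adjusted p = 1.03e-06, range 4.31e-07 to 0.18). This call was lost when any parental or TalaR-DF library was left out, with a change of 2.28 without parental replicate 1, 2 or 3, and of 2.40, 2.23 and 2.20 without TalaR-DF replicates 1, 2 and 3. Against parental cells TalaR-M cells differed by 0.66 (adjusted p = 0.433 from limma), by -0.17 without replicate 2, and by 1.05 and 1.09 without replicates 1 and 3.

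IGFBP2, often raised in carcinomas, was at 6.20, 6.08 and 6.25 log2 CPM in parental replicates and at 5.61, 5.22 and 5.41 in TalaR-DF replicates. TalaR-M replicates 1 and 3 were at 5.11 and 4.91, below both of these ranges, but replicate 2 was at 6.56, above them. The TalaR-M change was -0.65 (adjusted p = 0.251 from limma). Leaving out replicate 2 made it a called decrease of 2.25-fold (-1.17, limma adjusted p = 2.66e-06, range 2.75e-07 to 0.499 over the alternatives), and leaving out replicate 3 made it -0.34. IGFBP2 changed by -0.76 in TalaR-DF cells (adjusted p = 0.246 from limma), without overlap between the libraries of the 2 groups. TalaR-M replicate 2 entered this comparison only through the shared estimate of the spread. With it left out the limma adjusted p was 3.28e-05 (range 2.24e-06 to 0.484), still short of 2-fold.

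IGFBP4, which mainly restrains IGF action until PAPPA cleaves it, varied least among the 10 genes with all libraries, with a range of group means of 0.58. Its parental replicates were at 9.18, 9.13 and 9.19 log2 CPM, TalaR-M replicates at 8.95, 9.94 and 8.77, and TalaR-DF replicates at 8.79, 8.55 and 8.58. Only TalaR-M replicate 2 lay above the parental libraries, and all 3 TalaR-DF libraries lay below them. The change was 0.05 under maintained drug and -0.53 after withdrawal (adjusted p = 0.91 and 0.267 from limma), with a 95% confidence interval of -1.17 to 0.12 for the second. TalaR-M replicate 2 entered the second only through the shared estimate of the spread. Without it the interval was -0.69 to -0.36 (limma adjusted p = 8.21e-05, range 7.25e-06 to 0.49 over the alternatives), short of 2-fold. The change under maintained drug turned to -0.31 without replicate 2 and to -0.059 under quantile normalisation. TalaR-M and TalaR-DF cells differed by 0.58, and by 0.22 without that library. Its place as the steadiest gene did not hold without TalaR-M replicate 2. IGF2R then differed from parental cells by -0.04 in TalaR-M and -0.0067 in TalaR-DF cells, against -0.31 and -0.53 for IGFBP4.

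IGFBP7 was listed at 0 in all 3 parental and all 3 TalaR-DF libraries. TalaR-M replicates 1 to 3 held 34, 26 and 34 reads, or 1.16, 1.82 and 1.32 log2 CPM. Since 0 stands for at most 1 CPM, no fold is given, and a level under 1 CPM in the other groups cannot be seen in the deposited values. No test is given, since the filter let the gene in through TalaR-M cells alone.

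**Figure D3:**
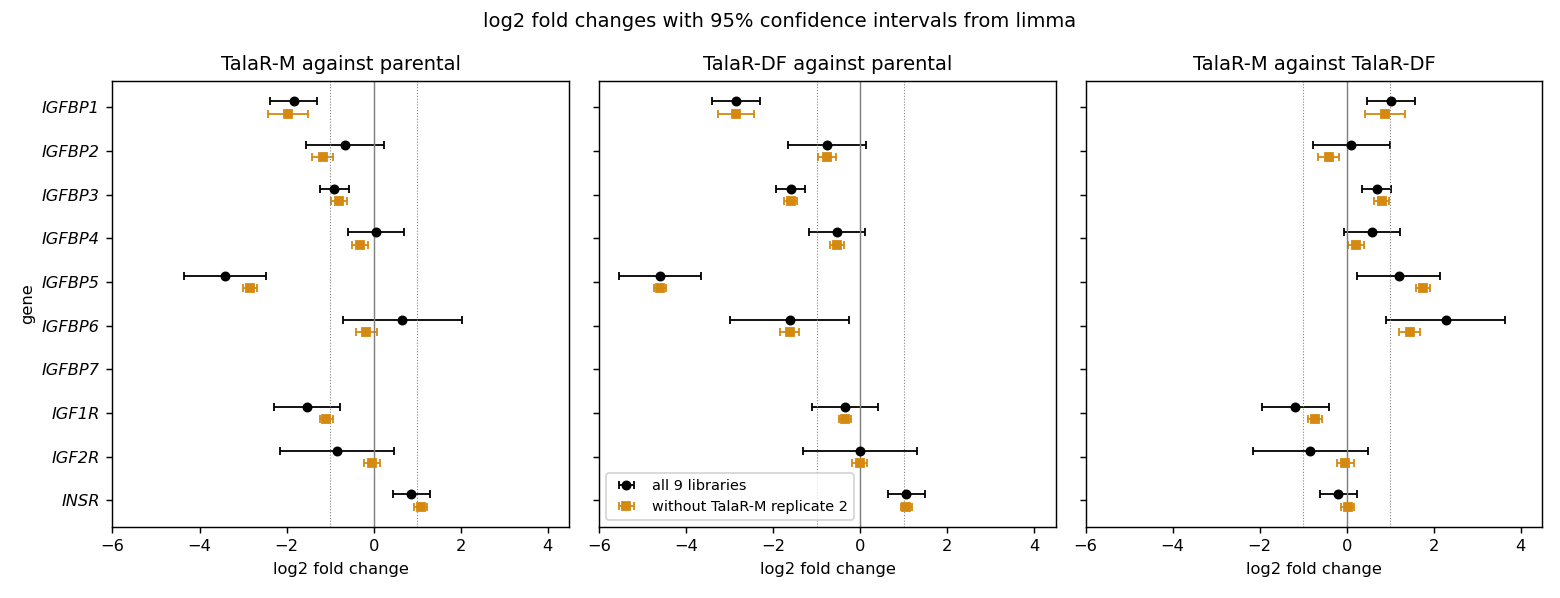
Log2 fold changes (x axis) of 9 of the 10 genes (y axis) in the 3 comparisons, with 95% confidence intervals from limma, for all 9 libraries (black circles) and without TalaR-M replicate 2 (orange squares). Dotted lines mark 2-fold, and IGFBP7 is left out because it was listed at 0 in parental and TalaR-DF cells. IGFBP5 is farthest to the left, at -3.41 in TalaR-M and -4.60 in TalaR-DF cells, and intervals narrow without TalaR-M replicate 2.

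Divided by transcript length, the levels of different genes can be set side by side. In parental cells IGFBP4 was the highest, at 8.03 ± 0.03 log2 CPM per kb (SD, n = 3), followed by IGFBP5 at 7.35 ± 0.03 and IGFBP3 at 7.16 ± 0.03. IGFBP6 (5.85 ± 0.06) and IGFBP2 (5.68 ± 0.08) came next, then IGF2R (4.15 ± 0.05), IGFBP1 (3.60 ± 0.12), IGF1R (3.47 ± 0.05) and INSR (2.05 ± 0.03). IGFBP1 and IGF1R overlapped within their SDs, and the other neighbours in this order did not. With the longest transcript of each gene in place of the chosen one, IGFBP2 and IGF2R changed places.

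The order differed in TalaR-DF cells. IGFBP4 stayed first, at 7.50 ± 0.13 log2 CPM per kb (SD, n = 3), then came IGFBP3 at 5.56 ± 0.10 and IGFBP2 at 4.91 ± 0.19. IGFBP6 (4.23 ± 0.21) and IGF2R (4.15 ± 0.17) did not differ beyond their SDs, nor did IGF1R (3.12 ± 0.10) and INSR (3.11 ± 0.08). IGFBP5, second in parental cells, was eighth at 2.75 ± 0.10, ahead of IGFBP1 at 0.75 ± 0.34. In TalaR-M cells the SD was at least 0.23, that of IGFBP3, and IGFBP4 was again first, at 8.08 ± 0.63.

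Summed over the 7 binding proteins, the level was 667 to 700 CPM per kb in parental libraries and 266 to 317 in TalaR-DF libraries. TalaR-M replicates 1 and 3 were at 421 and 370, between those groups, and replicate 2 was at 875, above both. The share of IGFBP5 in this sum was 23.6% to 23.8% in parental libraries, 5.67%, 0.80% and 5.83% in TalaR-M replicates 1 to 3, and 2.25% to 2.54% in TalaR-DF libraries. IGFBP4 took 37.6% to 38.1%, 50.8% to 53.4% and 63.0% to 63.8% of it in the same order of groups, without overlap. IGFBP6 took 12.5% and 13.5% in replicates 1 and 3 of TalaR-M and 32.6% in replicate 2, against at most 8.60% elsewhere. A share within a library shows unequal change between genes and not the change of any 1 of them.

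**Figure D4:**
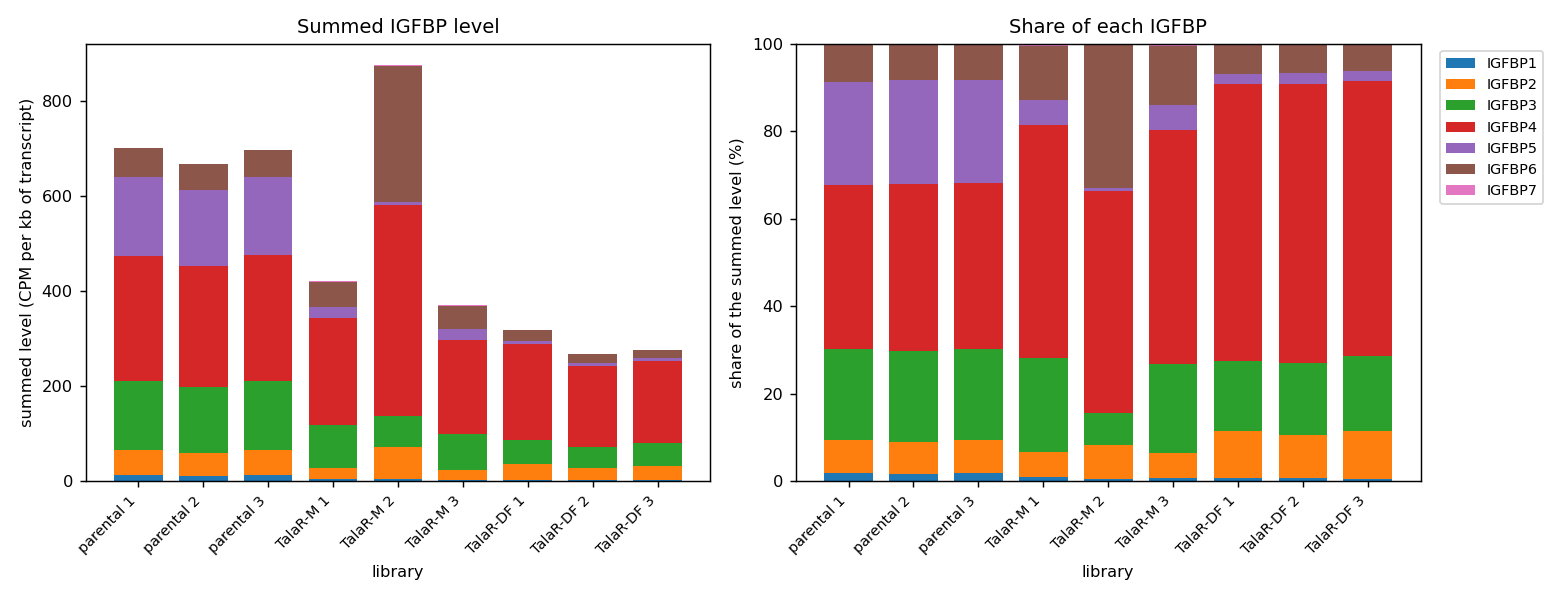
Binding protein transcripts in each of the 9 libraries (x axis) as the summed level in CPM per kb of transcript (left) and as the share of that sum in percent (right), coloured by gene. IGFBP5 takes 23.6% to 23.8% of the sum in parental and 2.25% to 2.54% in TalaR-DF libraries, and TalaR-M replicate 2 has the highest sum, 875.

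Among the receptors, IGF1R was at 7.08, 7.04 and 7.13 log2 CPM in parental replicates and at 6.66, 6.85 and 6.68 in TalaR-DF replicates. TalaR-M replicates were at 5.94, 4.66 and 6.06, below both other groups in every library. IGF1R fell by 1.53 on the log2 scale under maintained drug, or 2.89-fold (95% confidence interval -2.29 to -0.77, adjusted p = 0.0121 from limma). The decrease was 1.08 without replicate 2 (adjusted p = 1.6e-07, range 2.55e-08 to 0.0569 over the alternatives), and the call was lost when only the 2 groups compared were fitted (adjusted p = 0.0569). In TalaR-DF cells IGF1R changed by -0.35 (95% confidence interval -1.11 to 0.41, adjusted p = 0.58 from limma). Here TalaR-M replicate 2 counted only through the shared estimate of the spread. With it left out the interval was -0.49 to -0.21 (limma adjusted p = 0.000567, range 0.000325 to 0.764), still short of 2-fold. The difference of TalaR-M from TalaR-DF cells was -1.18 (adjusted p = 0.0562 from limma), and was called without TalaR-M replicate 1 (-1.37, adjusted p = 0.0483) or 3 (-1.43, adjusted p = 0.0409) but not without replicate 2 (-0.73), within a range of 8.7e-06 to 0.202.

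INSR was the receptor that rose. It was at 5.29, 5.25 and 5.32 log2 CPM in parental, 6.36, 5.72 and 6.38 in TalaR-M, and 6.33, 6.43 and 6.28 in TalaR-DF replicates. All 6 resistant libraries exceeded the parental ones, and TalaR-M replicate 2 was the lowest of the 6. In TalaR-DF cells INSR rose 2.08-fold (log2 fold change 1.06, 95% confidence interval 0.63 to 1.49, adjusted p = 0.00525 from limma). The change in TalaR-M cells was 0.87 (adjusted p = 0.0114 from limma), short of 2-fold, and 1.08 without replicate 2, which was called (adjusted p = 7.69e-08, range 7.33e-09 to 0.0558 over the alternatives). TalaR-M and TalaR-DF cells differed by -0.19, with a 95% confidence interval of -0.62 to 0.24 and an adjusted p of 0.473 from limma.

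IGF2R was at 8.03, 7.92 and 7.95 log2 CPM in parental and 7.81, 8.15 and 7.92 in TalaR-DF replicates, which overlapped. In TalaR-M cells replicates 1 and 3 were at 7.89 and 7.97, within the range of the other groups, and replicate 2 was at 5.53. The limma changes were -0.84 under maintained drug and -0.0067 after withdrawal (adjusted p = 0.309 and 1), with a 95% confidence interval of -1.32 to 1.31 for the second. That interval was -0.18 to 0.17 without TalaR-M replicate 2, which entered the second comparison only through the shared estimate of the spread. The change under maintained drug was -0.04 without TalaR-M replicate 2 (limma adjusted p = 0.72, range 0.145 to 0.749 over the alternatives), and -1.26 without replicate 3. Likewise, the difference of TalaR-M from TalaR-DF cells was -0.83, -0.03 without replicate 2 and -1.25 without replicate 3.

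The balance of the receptor genes was also taken within each library. INSR minus IGF1R, per kb of transcript, was -1.41, -1.42 and -1.44 on the log2 scale in parental replicates. It was 0.79, 1.44 and 0.70 in TalaR-M replicates and 0.03, -0.05 and -0.03 in TalaR-DF replicates. IGF1R thus exceeded INSR in the 3 parental libraries, INSR exceeded IGF1R in the 3 TalaR-M libraries, and the 2 genes were level in TalaR-DF libraries.

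Among these genes, 2 pairs are neighbours on a chromosome. IGFBP1 (45888360 to 45893660, plus strand) and IGFBP3 (45912245 to 45921874, minus strand) lie on chromosome 7 with 18584 bases between them, and IGFBP2 (216632828 to 216664436, plus strand) and IGFBP5 on chromosome 2 with 7668 bases between them. No tested gene lay within either gap. Among the 5 nearest tested genes on each side of the pair on chromosome 7, 0 of 10 were called by limma in TalaR-DF cells, against 9.73% of all tested genes. In TalaR-M cells 1 of 10, UPP1, was called, higher by 1.55, against 13.3% of all tested genes. That call was lost without TalaR-M replicate 2 (0.92), but ADCY1 (1.16) and TNS3 (1.14) were then called higher (limma adjusted p = 4.03e-06 and 7.87e-08). On chromosome 2, TNS1, which encodes the focal adhesion protein tensin, was at 5.65 log2 CPM in parental, 0.40 in TalaR-M and 0.15 in TalaR-DF cells (means of 3), a called change of -5.25 and -5.50 (adjusted p = 8.08e-07 and 7.99e-07 from limma), the first -5.04 without TalaR-M replicate 2. TMEM169 was at 1.16 in parental cells and listed at 0 in all resistant libraries, and MARCH4 was at 1.04 in TalaR-M cells and listed at 0 in the others. Both passed the filter through 1 group alone, so that their differences were built in and are not counted. The other 7 of the 10 neighbours were not called. UPP1, ADCY1, TNS3, TNS1, TMEM169 and MARCH4 were named after their values were seen. The other receptor genes lie apart, IGF1R on chromosome 15 from 98648539 to 98964530, IGF2R on chromosome 6 from 159969082 to 160113507 and INSR on chromosome 19 from 7112255 to 7294414.

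The rest of the IGF system was followed in 8 lists with 96 genes, of which 75 were tested. In TalaR-M cells 5 were called higher and 12 lower than in parental cells, and in TalaR-DF cells 2 higher and 9 lower. Between TalaR-M and TalaR-DF cells 4 were higher and 0 lower, with the same count of 0 lower by limma when TalaR-M replicate 2 was left out. Over all tested genes the shares called higher and lower were 5.53% and 7.72%, 2.25% and 7.49%, and 5.29% and 1.64% in the 3 comparisons.

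Of the 8 ligands and circulating partners, IGF2 was the 1 that could be tested. IGF1, INS and IGFALS were among 6 that were listed at 0 in all libraries. IGF2 was at 9.14, 9.05 and 9.05 log2 CPM in parental, 6.77, 5.15 and 6.64 in TalaR-M, and 6.25, 6.18 and 6.28 in TalaR-DF replicates, so that all 6 resistant libraries lay below the parental ones. IGF2 changed by -2.90 in TalaR-M cells (adjusted p = 0.000944 from limma, and -2.38 without replicate 2) and by -2.85 in TalaR-DF cells (adjusted p = 0.00124). Reads of IGF2 can be shared with a read-through transcript from INS and with an antisense gene, and whether the counting used the strand is not given in the sources used here.

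Of 10 proteases of the binding proteins and their inhibitors, 5 were tested and 3 were called lower in both resistant populations. PAPPA, which cleaves IGFBP4 and IGFBP5, was at 6.55, 6.57 and 6.72 log2 CPM in parental, 4.83, 1.52 and 4.67 in TalaR-M and 3.60, 3.76 and 3.63 in TalaR-DF replicates. Its changes were -2.94 and -2.95 (adjusted p = 0.0263 and 0.0304 from limma), the first -1.87 without TalaR-M replicate 2, where PAPPA was also called 1.09 higher in TalaR-M than in TalaR-DF cells. STC1, an inhibitor of PAPPA, changed by -2.89 (-2.38 without TalaR-M replicate 2) and -1.56 (limma adjusted p = 0.000951 and 0.0228). HTRA1, a secreted serine protease, changed by -2.11 (-2.26 without that library) and -2.26 (limma adjusted p = 3.58e-05 and 3.26e-05). PAPPA and its inhibitor STC1 were therefore both lower in the resistant populations.

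The CCN family shares a domain with the binding proteins, and 3 of the 8 genes in its list were tested. CYR61 (CCN1) was at 5.42, 5.35 and 5.50 log2 CPM in parental, 7.97, 7.68 and 7.92 in TalaR-M and 6.53, 6.58 and 6.38 in TalaR-DF replicates. The 3 groups of CYR61 did not overlap, and the changes were 2.44 and 1.07 (adjusted p = 4.88e-06 and 0.000712 from limma). NOV (CCN3) rose by 2.24 and 1.84 (limma adjusted p = 0.000421 and 0.00157). CTGF (CCN2) rose by 2.13 in TalaR-M cells (adjusted p = 1.57e-05 from limma) and differed by 0.44 in TalaR-DF cells (adjusted p = 0.0656 from limma). CYR61 and CTGF also exceeded their TalaR-DF level under maintained drug, by 1.36 and 1.69 (limma adjusted p = 0.000374 and 0.000183). With TalaR-M replicate 2 left out, the changes against parental cells were 2.52 for CYR61, 2.54 for NOV and 2.22 for CTGF, and those against TalaR-DF cells 1.45 for CYR61 and 1.79 for CTGF, all called.

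**Figure D5:**
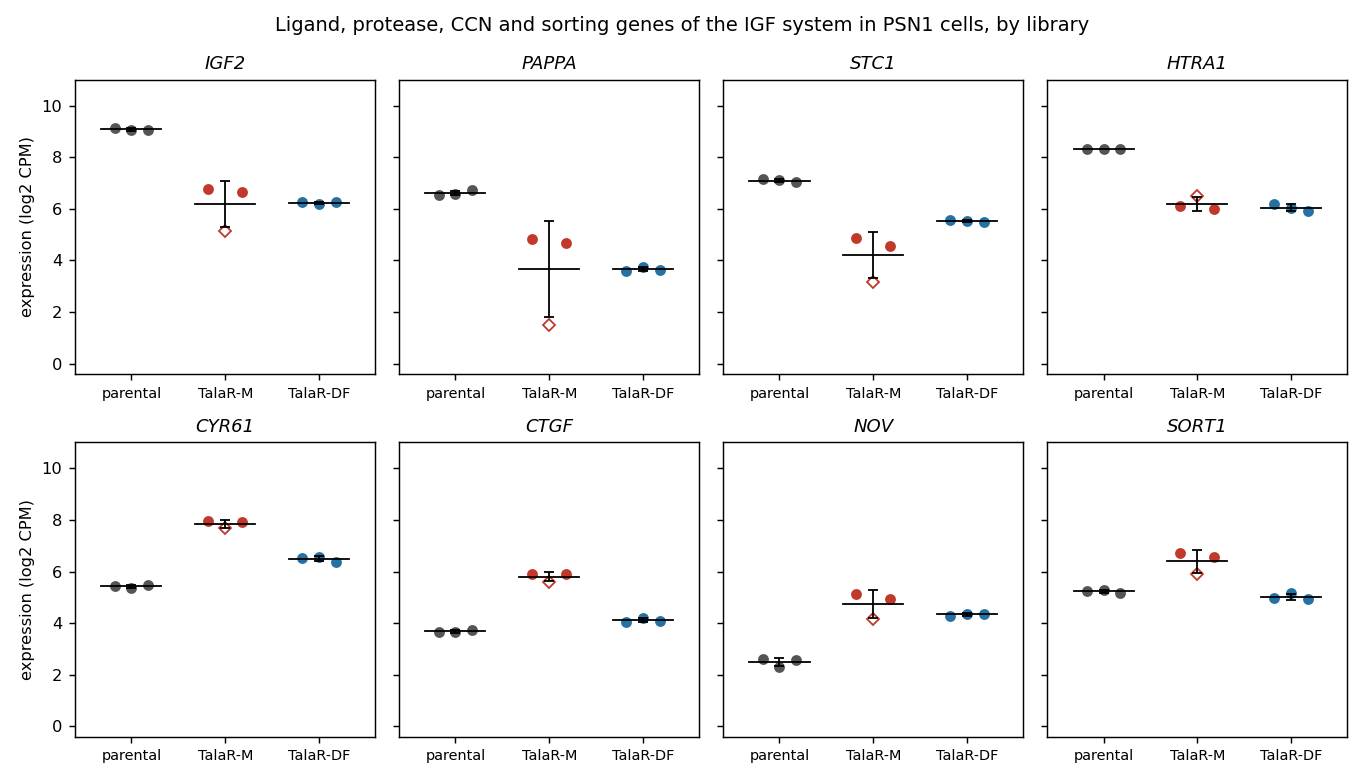
Expression in log2 CPM (y axis) of the ligand IGF2, PAPPA, STC1 and HTRA1, the CCN genes CYR61, CTGF and NOV, and the sorting receptor SORT1 in each library of the 3 groups (x axis). Points are libraries, the open diamond is TalaR-M replicate 2, and lines with bars are the mean and SD of 3 libraries. IGF2 falls from 9.08 in parental to 6.19 and 6.23 in TalaR-M and TalaR-DF cells, while CYR61 rises from 5.42 to 7.86 and 6.50.

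Among 15 tested receptor adaptors and phosphatases, 4 were called lower under maintained drug and 2 after withdrawal. ENPP1, a membrane inhibitor of INSR, changed by -1.42 and -2.40 (limma adjusted p = 0.0272 and 0.0028), and SH2B2, an adaptor of INSR, by -1.14 and -1.29 (adjusted p = 0.024 and 0.0164). TalaR-DF replicates 1 to 3 were at 0, 0 and 0.50 log2 CPM for ENPP1, at or near the floor of 0. IRS2, a docking protein of both receptors, changed by -1.19 in TalaR-M cells (adjusted p = 0.00982 from limma), and GRB10, an inhibitory adaptor named after its values were seen, by -1.01 (adjusted p = 0.000616). Without TalaR-M replicate 2, SH2B2 was the 1 gene of the 4 still called in TalaR-M cells (-1.48), with ENPP1 at -0.94, IRS2 at -0.93 and GRB10 at -0.91, while ENPP1 was called 1.46 higher in TalaR-M than in TalaR-DF cells.

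In the PI3K, AKT and mTOR branch 27 genes were tested. FOXO1, a transcription factor that AKT inactivates, changed by -1.99 and -1.58 (limma adjusted p = 0.000542 and 0.00235) in TalaR-M and TalaR-DF cells. Its TalaR-M replicates were at 0.29, 0 and 0.71 log2 CPM, at or near the floor of 0. PIK3CD, a catalytic subunit of PI3K, changed by -1.81 and -1.97 (limma adjusted p = 0.000151 and 0.000116), from a parental level of 2.16 log2 CPM. DDIT4, a stress-induced inhibitor of mTOR, changed by -2.02 in TalaR-M cells (adjusted p = 0.00962 from limma), and without TalaR-M replicate 2 by -1.45, with a call of -1.07 in TalaR-DF cells as well. PIK3R3, a regulatory subunit, was higher in TalaR-M than in TalaR-DF cells by 1.66 (adjusted p = 0.0034 from limma) and than in parental cells by 1.73 (adjusted p = 0.00129). With TalaR-M replicate 2 left out, FOXO1 changed by -1.83 and PIK3CD by -1.80 in TalaR-M cells, and PIK3R3 was 1.89 above its TalaR-DF and 1.97 above its parental level, all called. With all libraries, the other genes of the branch passed the test in none of the 3 comparisons.

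In the RAS and MAPK branch, SOS1, an exchange factor of RAS named after its values were seen, was not called with all libraries. It changed by 0.75 in TalaR-M and 1.06 in TalaR-DF cells (limma adjusted p = 0.303 and 0.21). SOS1 was called higher in both populations when TalaR-M replicate 2 was left out (1.45 and 1.06). Among 10 genes listed with mannose 6-phosphate sorting, to which IGF2R belongs, only SORT1, a sorting receptor of the Golgi, was called. SORT1 lay above its parental level in TalaR-M cells by 1.16 and above its TalaR-DF level by 1.37 (adjusted p = 0.00525 and 0.00476 from limma). Without TalaR-M replicate 2 these differences were 1.41 and 1.62. The rest of the list, with the mannose 6-phosphate receptor M6PR, was not called in either setting. Of the 2 tested IGF2 mRNA-binding proteins limma called 0 in each comparison, with 1 of 2 at an unadjusted p under 0.05 in each. IGF2BP3 was called lower in TalaR-M cells without replicate 2 (-1.22), where that library was at 1.82 log2 CPM against 6.38 and 6.27 in replicates 1 and 3.

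The pattern of IGFBP5 over the 9 libraries was most like that of BHLHE41 (Pearson r = 0.9945), AFAP1L2 (0.994) and FAM46A (0.993), among 9518 genes with a mean over 3 log2 CPM. The libraries of a group share their state, and r across 9 libraries in 3 groups describes the group levels. BHLHE41, a circadian repressor, was at 8.52, 5.88 and 5.38 log2 CPM in parental, TalaR-M and TalaR-DF cells. Without TalaR-M replicate 2 these genes ranked 19th, 14th and 26th by likeness to IGFBP5.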

How the data were processed

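The RNAseq libraries of 3 PSN1 groups were used (parental, maintained and withdrawn), with 3 libraries each. RNAseq of other cell lines and of short treatments was not analysed here. Per the labels and the study, libraries were stranded and poly(A) selected, and paired reads of 150 bases were sequenced. The submitters' processing notes name hg38, and the aligner, the counter and the annotation are not given in the sources used here. The authors deposited log2 values, which the values themselves show to be log2 CPM with a prior count of 1 and with values under 0 set to 0. Reads were recovered from the steps between values, whole within 0.1, and were used for depth and read numbers only, since values at or under 1 CPM hold no reads. No count test was therefore run. One CPM corresponds to 6.97 to 14.54 reads, counting error only.

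Groups were compared in 1 linear model with limma 3.58.1 in R 4.3.3 (mean-variance trend, no block), for genes above 1 CPM in at least 3 libraries. Calls needed a Benjamini-Hochberg adjusted p under 0.05 over all tested genes and a log2 fold change of at least 1. The deposited prior count remains in each fold change and understates the change of low genes. Setting values under 0 to 0 also understates falls that reach this floor, as for ENPP1, FOXO1, PIK3CD and TNS1. The fit was tested on simulated data. A permutation test, exact and two-sided, cannot go below p = 0.1 with 3 libraries a group, so none was used for single genes. Group labels came from sample titles, and the columns for maintained and withdrawn cells were matched to TalaR-M and TalaR-DF. Columns of same-numbered replicates were checked for pairing.

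Transcript lengths and positions came from GENCODE 44 (GRCh38), matched by symbol for 99.49% of 10512 genes, and promoters from RefSeq. The named genes were all 10, the 3 largest changes among the called genes of each list, and the 3 genes most like the member with the widest range. The members, the lists and the separate treatment of TalaR-M replicate 2 were chosen with earlier results of these data known. Alternatives were an added 1 or 8 CPM, no filter or a minimum of 5 CPM, median-ratio scaling, quantile normalisation, no mean-variance trend, only the 2 groups compared, array weights, a replicate block, no fold threshold, the longest transcript, and leaving out each library. One result of the pathway lists is not reported here. Python 3.11.15 with matplotlib 3.10.9 made the plots.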

Additional observations from a re-analysis of the deposited data

How the results depend on the processing

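Of the results for single genes under the alternatives, IGFBP7 included, 518 kept their direction and their side of the threshold, 27 lost a call, 20 gained one and 13 reversed. IGFBP7 gave 19 of these results in each comparison with TalaR-M cells, all but 1 with the call kept. Its difference was built into the filter, so its results say nothing about stability. IGFBP5 in both comparisons with parental cells, and IGFBP1 and IGFBP3 in TalaR-DF cells, kept their calls under every alternative that was run. Counts of calls below are over the 9 genes other than IGFBP7, as above. With 8 CPM added, 2 of the 9 genes were called in TalaR-M against parental cells and 1 in TalaR-M against TalaR-DF cells, and 711, 426 and 272 of all genes in the 3 comparisons. This offset also took IGFBP1 in TalaR-M cells to -0.998 and INSR in TalaR-DF cells to 0.93, under 2-fold. Without a fold threshold, 2938, 2315 and 1502 of all genes passed, against 1653, 1214 and 864. Between TalaR-M and TalaR-DF cells, 4 of the 9 and 991 of all genes were called after median-ratio scaling. When only these groups were fitted, 0 of the 9 and 484 of all genes were called. Leaving out 1 library gave 3 to 5, 4 to 5 and 0 to 3 of the 9 in the 3 comparisons, and 1298 to 2045, 983 to 1417 and 578 to 1043 of all genes.

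Directions reversed only for changes that were not called. IGFBP4 in TalaR-M cells turned to -0.059 under quantile normalisation, -0.33 with array weights and -0.31 without TalaR-M replicate 2, and IGFBP6 to -0.16 and -0.17 under the last 2, with ranges of -0.31 to 0.28 and -0.17 to 1.09 when 1 library was left out. IGF2R in TalaR-DF cells turned to 0.011 with array weights, and ranged from -0.10 to 0.068 when 1 library was left out (0.023, 0.068 and 0.012 without parental replicate 1 and TalaR-DF replicates 1 and 3). Between TalaR-M and TalaR-DF cells IGFBP2 turned to -0.41 under both array weights and omission of TalaR-M replicate 2, and INSR to 0.017 and 0.024, with ranges of -0.41 to 0.42 and -0.31 to 0.024 over single omissions. The array weight of TalaR-M replicate 2 was 0.0133, so that this setting nearly leaves it out, and the cause of the other reversals was not tested.

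Median-ratio scaling moved the median of all genes in TalaR-M against parental cells from -0.09 to 0.01. Of all calls in TalaR-DF cells 34.1% were higher under quantile normalisation, against 23.1%, and 65.2% against 76.4% between TalaR-M and TalaR-DF cells. Replicate numbers did not pair the libraries, since 2 of 9 same-numbered pairs had a correlation of deviations over 0.1 (-0.42 to 0.22). A replicate block gave 1546, 1132 and 750 calls over all genes and removed the call of IGFBP6 between TalaR-M and TalaR-DF cells (limma adjusted p = 0.0718). IGFBP7 has no value with a minimum of 5 CPM. Levels under 1 CPM, such as those of IGFBP7 and IGF1, could not be measured.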
